A study of Homo sapiens with 12 samples.

Results

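Transcripts of 8 genes at the head of the phosphatidylinositol 3-kinase (PI3K) and AKT pathway were followed in SW1736 cells, a cell line established from an anaplastic thyroid carcinoma. The genes were listed by symbol, with earlier results of these data known. They were PIK3CA and PIK3CB (catalytic subunits p110α and p110β) and PIK3R1 and PIK3R2 (regulatory subunits p85α and p85β). The others were the phosphatases INPP4B and PHLPP1 and the kinases AKT1 and AKT2. All 8 symbols were found among the 56832 gene symbols counted in each library. The study crossed a vector with a hormone treatment, with 3 RNA-seq libraries in each of 4 groups. EV cells carried the empty vector pCDH-EV and TRB cells carried pCDH-TRB, from which thyroid hormone receptor β is stably expressed. Cells of all 4 groups were kept for 24 h in phenol-red-free medium with charcoal-stripped serum and then received either 10 nM triiodothyronine (T3), the active thyroid hormone, or its sodium hydroxide vehicle for 24 h. Each vector is represented by 1 line of cells, so vector and line cannot be told apart. No label says that the libraries of a group came from separate cultures, so the p-values measure the spread between these libraries, which may be technical.

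Class I PI3K is a dimer of a catalytic and a regulatory subunit. It phosphorylates the membrane lipid PI(4,5)P2 to PI(3,4,5)P3, which draws AKT to the membrane, where it is activated by phosphorylation. INPP4B removes the 4-phosphate from PI(3,4)P2, a lipid made from PI(3,4,5)P3 that also binds AKT, and PHLPP1 dephosphorylates AKT itself. Activation of this pathway is a known feature of aggressive thyroid cancers. The counts report transcripts only and carry no information on phosphorylation or lipid levels.

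Counts within genes ranged from 3819306 to 13086717 per library, and 19.03% to 91.95% of what a file lists were alignments without a unique place. That share was lowest in TRB-T3 replicate 2, which also had the fewest genes with a count (17833), and highest in EV-T3 replicate 3. It was 77.7%, 69.6% and 91.95% in EV-T3 and 66.3%, 33.1% and 37.9% in EV-vehicle, so it differed along the T3 comparison in EV cells. THRB, the receptor gene, stood at 12.35 to 18.3 CPM (counts scaled to library size) in the 6 EV libraries, at 79.8 to 80.4 in TRB cells with vehicle and at 190.3 to 321.9 in TRB cells with T3. The epithelial genes KRT8 and EPCAM had medians of 1495 and 458 CPM, and the keratin KRT7 had a median of 4.33. Of the thyroid markers TG, TSHR, SLC5A5 and FOXE1 were at or near 0, PAX8 had a median of 4.57, and the mesenchymal marker VIM reached at most 1.51, while FN1 ranged from 9.15 to 303 CPM. Replicate 2 of TRB-T3 stood apart from all other libraries. Each result is therefore given with all 12 libraries and with the 11 others.

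Replicate 2 of TRB-T3 differed from replicates 1 and 3 of its group for all 7 members that could be tested. For the low-GC transcripts it was higher than the mean of the other replicates, by 1.704 on the log2 scale for PIK3CA, 1.32 for PIK3CB, 1.31 for INPP4B and 1.28 for PIK3R1. For the GC-rich transcripts it was lower, by -0.66 for PHLPP1, -2.60 for AKT2 and -2.68 for AKT1. The same split ran through the 12158 tested genes with a known GC content: the median difference was 1.43 in the quintile of genes with the lowest GC and -2.88 in the quintile with the highest. The rank correlation with GC was -0.89 over these genes, given as a description. Replicates 1 and 3 differed from each other by -0.14 to 0.21 on the log2 scale for the members.

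**Figure D1:**
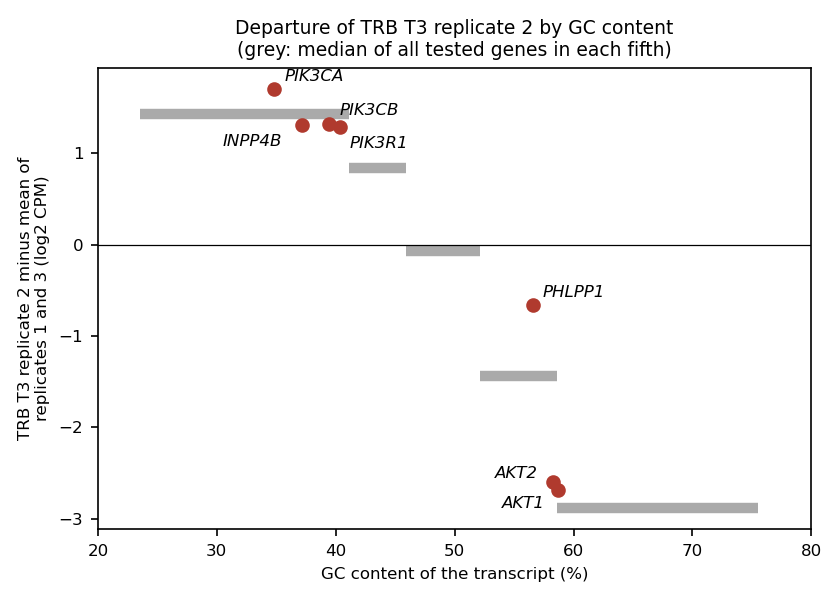
Log2 CPM of TRB-T3 replicate 2 minus the mean of replicates 1 and 3, plotted for the 7 tested members against the GC content (%) of their longest transcript. Grey bars give the median over all tested genes in each quintile of GC content: the 4 members under 41% GC lie above 0 and the 3 members over 56% lie below it.

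Per kilobase of transcript, AKT1 and AKT2 were the most abundant members in EV cells with vehicle, at 44.8 ± 3.74 and 39.2 ± 3.67 CPM per kb (SD, n = 3). PIK3R1 followed at 29.4 ± 0.80, then PIK3CB at 10.6 ± 0.84, PIK3CA at 8.97 ± 0.88, INPP4B at 5.86 ± 0.68 and PHLPP1 at 3.62 ± 0.23. The ranges of AKT1 and AKT2 overlapped, as did those of PIK3CB and PIK3CA, and the other neighbours in this order did not overlap. The order of the group means was the same in EV cells with T3 and in TRB cells with vehicle. In replicates 1 and 3 of TRB-T3 INPP4B stood at 8.74 ± 0.43 CPM per kb (SD, n = 2), above PIK3CB at 7.91 ± 0.44 and PIK3CA at 7.16 ± 0.74.

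PIK3R2 was nearly absent from the counts, with 0, 3 and 2 reads in the EV vehicle libraries, 1, 3 and 0 in EV-T3, 5, 3 and 1 in TRB-vehicle and 1, 0 and 1 in TRB-T3. A count of 0 in EV-T3 replicate 3, the shallowest library, allows up to 3 counts or 0.759 CPM, for counting error only. The gene failed the filter on low counts and was not tested. In GENCODE 29 the gene lies at chr19:18153118-18170540 on the plus strand, and 87.2% of its exon bases are shared on the same strand with AC007192.1 at chr19:18153158-18178117. The symbol AC007192.1 was not among those counted, and the neighbouring IFI30 had 0 to 10 reads. Whether the shared exons lowered the count of PIK3R2 was not tested.

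With T3 in TRB cells the phosphatase genes INPP4B and PHLPP1 were the members with the clearest gains. With all 12 libraries INPP4B was the single member of 7 tested that passed in edgeR's quasi-likelihood test, against 14.7% of all 14431 genes in either direction and 8.54% higher. With 11 libraries INPP4B, PHLPP1 and AKT1 rose, 3 of 7, against 33.3% of 14825 genes in either direction and 18.1% higher. No member fell in either fit. The median log2 change was 0.44 over the members with 12 libraries and 0.16 with 11, beside 0.0068 and -0.011 over all tested genes. In bulk libraries a change in the share of cells and a change per cell cannot be told apart.

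In EV cells with T3, and between the vectors in vehicle, no member passed. The T3 effect in EV cells gave 0 of 7 with 12 and with 11 libraries, against 0.229% and 7.33% of all genes. At an unadjusted p under 0.05 it gave 0 members with 12 libraries and 1 with 11, which was PHLPP1, and DESeq2 gave 0. TRB against EV in vehicle gave 0 of 7 in both fits, against 0.0208% and 0.0742% of all genes, with 0 members at an unadjusted p under 0.05 and 0 in DESeq2. TRB against EV with T3 gave 0 members with 12 libraries, against 6.68% of all genes. INPP4B was at an unadjusted p under 0.05 there and passed in DESeq2. With 11 libraries this comparison gave INPP4B and PHLPP1, 2 of 7, both higher in TRB cells, against 19.7% of all genes and 11.8% higher. The difference between the T3 effects in TRB and EV cells (the interaction) gave 0 members with 12 libraries, against 2.59% of all genes, with INPP4B at an unadjusted p under 0.05 and no member in DESeq2. With 11 libraries it gave INPP4B alone, 1 of 7, against 15.2%.

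**Figure D2:**
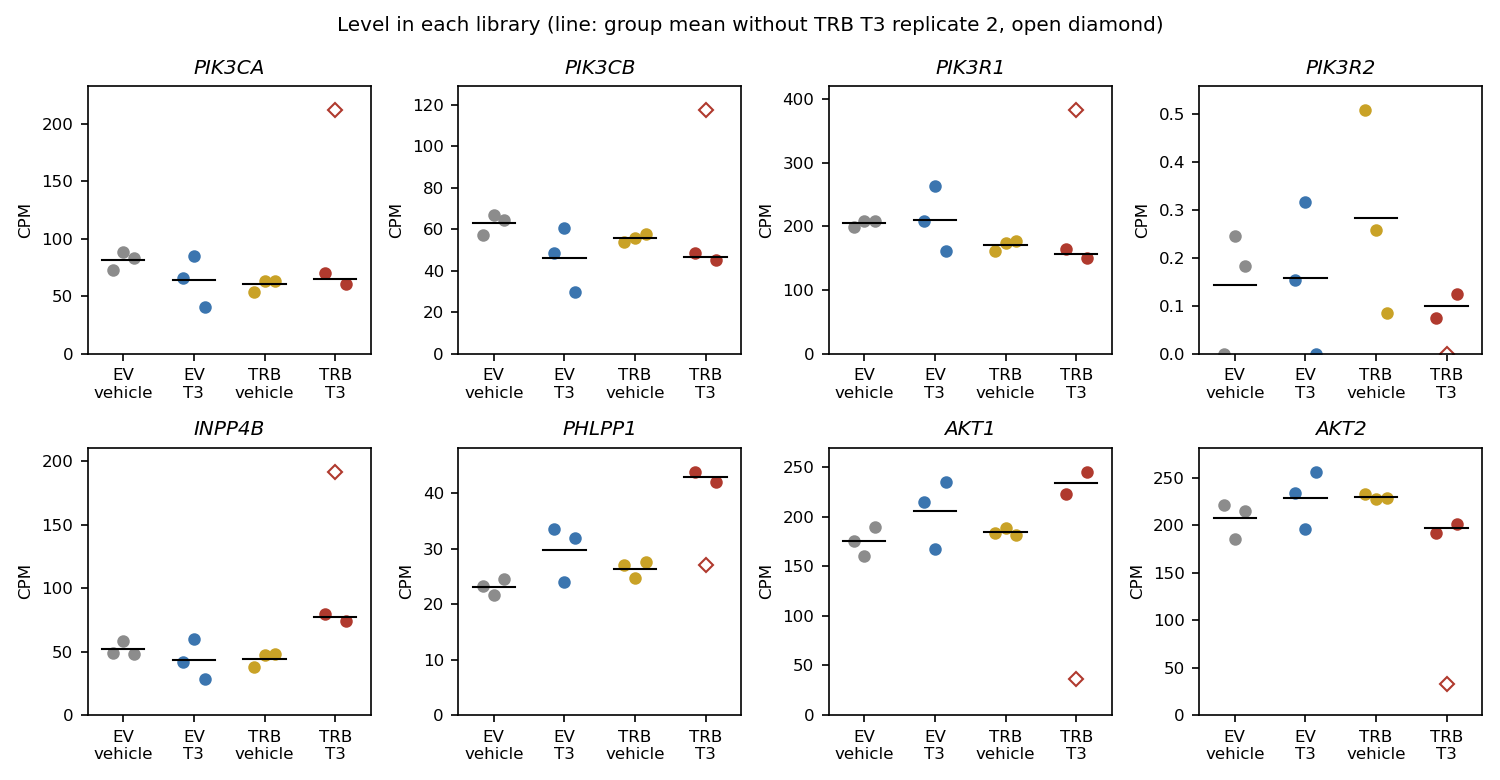
CPM of the 8 members in each of the 12 libraries, by group, on linear axes from 0. Points are libraries, lines are group means without TRB-T3 replicate 2, and the open diamond is that library, which is highest for the 4 low-GC members and lowest for AKT1 and AKT2.

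PIK3CA and PIK3CB, the catalytic subunits expressed in most tissues, did not pass in any comparison with 12 or 11 libraries. PIK3CA (chr3:179148114-179240093, plus strand, GRCh38) stood at 72.8, 88.4 and 83.4 CPM in EV-vehicle, 66.1, 85.1 and 40.5 in EV-T3, 54.0, 63.3 and 63.3 in TRB-vehicle and 69.8, 212 and 60.3 in TRB-T3. The vehicle libraries of TRB cells were all below those of EV cells, and the T3 libraries overlapped their controls in both lines. The share of all genes whose groups do not overlap is not given here. Such separation is a description, for this gene and for those below. Without replicate 2 the T3 effect in TRB cells was 0.16 on the log2 scale (95% interval -0.33 to 0.65, edgeR adjusted p = 0.636). In EV cells it was -0.33 (-0.78 to 0.12, edgeR adjusted p = 0.306). In vehicle TRB cells differed from EV cells by -0.43 (-0.87 to 0.017), with an edgeR adjusted p of 0.40 with 11 libraries. That difference passed with the 6 vehicle libraries alone (-0.42, edgeR adjusted p = 0.0235). The share of all genes that passed in that fit is not given here. With offsets that remove a trend on GC content from each library and 11 libraries, the difference was -0.072 (edgeR adjusted p = 0.637). In GENCODE 29 35.8% of the exon bases of PIK3CA overlap KCNMB3 on the opposite strand. KCNMB3 had 8 to 47 reads, and strand use in counting is not given in the sources used here.

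PIK3CB (chr3:138652699-138834938, minus strand) stood at 57.3, 66.9 and 64.7 CPM in EV-vehicle and 48.8, 60.7 and 29.6 in EV-T3. In TRB cells it stood at 54.1, 55.9 and 57.9 with vehicle and at 48.6, 117 and 45.0 with T3. Replicates 1 and 3 of TRB-T3 were below all 3 vehicle libraries, while replicate 2 was above every other library. The T3 effect in TRB cells was 0.33 with 12 libraries and -0.21 with 11 (95% interval -0.67 to 0.25, edgeR adjusted p = 0.494), so replicate 2 set its sign. In EV cells it was -0.41 with 11 libraries (-0.83 to 0.0040, edgeR adjusted p = 0.181).

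PIK3R1 (chr5:68215720-68301821, plus strand) encodes p85α, which stabilizes the catalytic subunit and holds its activity down until a receptor is engaged. It stood at 199, 209 and 209 CPM in EV-vehicle and 208, 263 and 161 in EV-T3, with 1 library on each side of the vehicle range. In TRB cells it stood at 161, 174 and 177 with vehicle and 165, 383 and 149.6 with T3. All 3 vehicle libraries of TRB cells were below those of EV cells. The difference in vehicle was -0.25 on the log2 scale with 11 libraries (95% interval -0.58 to 0.067, edgeR adjusted p = 0.42). It passed with the vehicle libraries alone (-0.24, edgeR adjusted p = 0.0456), a fit for which no share of all genes is given. With the offsets on GC content and 11 libraries it was -0.042 (edgeR adjusted p = 0.763). With T3 the difference between the vectors was -0.37 with 11 libraries (-0.73 to -0.0033, edgeR adjusted p = 0.156).

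INPP4B (chr4:142023160-142847432, minus strand) had the largest T3 effect of the members in TRB cells with 12 and with 11 libraries. With GC offsets on 12 libraries, which remove a trend on GC content from each library, that of PHLPP1 was larger (0.98 against 0.75), and likewise without TRB-T3 replicate 2 and TRB-vehicle replicate 1 (0.76 against 0.74). It stood at 38.0, 47.1 and 47.8 CPM in TRB cells with vehicle and at 79.9, 192 and 74.4 with T3. The T3 libraries lay above every vehicle library, with or without replicate 2. In EV cells it stood at 48.6, 58.7 and 48.0 with vehicle and 42.1, 59.9 and 28.3 with T3, where the groups overlapped. The fold change in TRB cells was 2.60 with 12 libraries (log2 1.38, SE 0.38, edgeR adjusted p = 0.0325) and 1.80 with 11 (log2 0.85, SE 0.23, edgeR adjusted p = 0.012). In EV cells the effect was -0.22 with 11 libraries (95% interval -0.68 to 0.24, edgeR adjusted p = 0.512).

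The T3 effect on INPP4B was larger in TRB than in EV cells by 1.07 on the log2 scale with 11 libraries (SE 0.31, edgeR adjusted p = 0.0371). It was larger by 1.63 with 12 (SE 0.53, edgeR adjusted p = 0.148). Among cells given T3, INPP4B was 1.81-fold higher in TRB than in EV cells with 11 libraries (log2 0.86, SE 0.23, edgeR adjusted p = 0.0198), and the libraries of these groups did not overlap. In vehicle the difference between the vectors was -0.21 (95% interval -0.66 to 0.24). All 3 TRB libraries were below the EV libraries, the nearest by little (47.84 against 47.97 CPM).

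The call on INPP4B depended on single libraries. Leaving out TRB-vehicle replicate 1, 2 or 3 from the 12 libraries gave an edgeR adjusted p of 0.111, 0.0796 or 0.0793 for T3 in TRB cells. The compared groups alone, with TRB-T3 replicate 2, gave 0.146. Without that library the compared groups alone gave 0.85 (edgeR adjusted p = 2.99e-06), a fit for which no share of all genes is given. GC offsets on 12 libraries gave 0.75 (edgeR adjusted p = 2.79e-05). Starting from 11 libraries, leaving out each in turn kept the effect between 0.74 and 0.90, and the test was passed in 9 of 11 cases. The exceptions were TRB-T3 replicates 1 and 3 (edgeR adjusted p = 0.0912 and 0.0551), each of which leaves 1 library whose spread is assumed to be like that of the other groups. The interaction was passed in 2 of 11 such cases, those without EV-T3 replicate 2 or 3, and ran from 0.84 to 1.34. Its edgeR adjusted p rose to 0.0628, 0.0966 and 0.0598 without EV-vehicle replicates 1, 2 and 3, to 0.0893 without EV-T3 replicate 1, to 0.0909, 0.0597 and 0.0637 without TRB-vehicle replicates 1, 2 and 3, and to 0.137 and 0.101 without TRB-T3 replicates 1 and 3. The comparison with EV cells given T3 was passed in 8 of 11 cases, and not without EV-T3 replicate 1 (edgeR adjusted p = 0.0716) or TRB-T3 replicates 1 and 3 (0.133 and 0.086). It was also lost when the EV and TRB libraries with T3 were fitted alone without TRB-T3 replicate 2 (0.80, edgeR adjusted p = 0.136).

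PHLPP1 (chr18:62715450-62980433, plus strand) encodes a phosphatase that acts on the hydrophobic motif of AKT. It stood at 27.0, 24.6 and 27.5 CPM in TRB cells with vehicle and at 43.8, 27.0 and 42.0 with T3. Replicate 2 was within the vehicle range, and replicates 1 and 3 were above it. The fold change was 1.68 with 11 libraries (log2 0.75, SE 0.14, edgeR adjusted p = 0.00102) and 1.43 with 12 (log2 0.51, SE 0.21, edgeR adjusted p = 0.137). From 11 libraries the test was passed in all 11 cases with 1 more library left out, with effects of 0.70 to 0.78 and a highest edgeR adjusted p of 0.0174.

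In EV cells PHLPP1 stood at 23.2, 21.6 and 24.5 CPM with vehicle and 33.5, 24.0 and 31.9 with T3. Replicates 1 and 3 of EV-T3 were above all vehicle libraries and replicate 2 was among them. The effect was 0.36 with 11 libraries (95% interval 0.070 to 0.64, edgeR adjusted p = 0.107). The difference between the T3 effects in TRB and EV cells was 0.39 (-0.021 to 0.81, edgeR adjusted p = 0.188), so in this fit the response was not shown to differ between the vectors. With GC offsets and 11 libraries that difference was 0.45 and passed (edgeR adjusted p = 0.0113), as did 34.7% of genes. Among cells given T3 PHLPP1 was 1.52-fold higher in TRB than in EV cells with 11 libraries (log2 0.60, SE 0.14, edgeR adjusted p = 0.009). That call was lost without TRB-T3 replicate 1 or 3 (edgeR adjusted p = 0.0854 and 0.0516) and when EV and TRB cells with T3 were fitted alone (0.149).

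Promoter sequences from RefSeq (GRCh38.p14) are shown for these phosphatase genes because their transcripts gave the clearest gains with T3. Each line gives the 250 bases before an annotated start, read 5′ to 3′ on the strand of the gene. Capitals mark AGGTCA, the half-site bound by thyroid hormone receptors. INPP4B has 6 annotated starts in the table. The only match in any of its windows is upstream of an internal start, where the bases shown lie at chr4:142305945-142306194, minus strand. Those before the outermost start lie at chr4:142846302-142846551, minus strand. PHLPP1 has 1 start, and the bases before it lie at chr18:62715291-62715540, plus strand.
INPP4B internal start: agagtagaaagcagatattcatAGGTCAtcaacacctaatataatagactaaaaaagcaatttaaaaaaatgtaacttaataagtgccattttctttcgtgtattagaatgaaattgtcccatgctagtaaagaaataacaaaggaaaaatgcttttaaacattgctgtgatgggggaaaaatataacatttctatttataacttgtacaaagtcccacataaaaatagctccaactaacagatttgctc
INPP4B outermost start: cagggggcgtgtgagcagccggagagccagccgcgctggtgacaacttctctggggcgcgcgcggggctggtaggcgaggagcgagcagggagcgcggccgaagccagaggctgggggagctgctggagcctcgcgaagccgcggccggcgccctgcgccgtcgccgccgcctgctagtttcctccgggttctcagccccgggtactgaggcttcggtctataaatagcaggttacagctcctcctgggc
PHLPP1 start: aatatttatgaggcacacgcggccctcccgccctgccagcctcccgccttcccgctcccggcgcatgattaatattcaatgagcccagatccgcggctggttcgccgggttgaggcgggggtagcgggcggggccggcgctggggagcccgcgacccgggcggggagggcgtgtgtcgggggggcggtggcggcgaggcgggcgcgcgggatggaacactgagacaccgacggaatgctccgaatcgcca

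The motif was searched on both strands in windows of 300 bases, 250 before and 50 after each start, where no other motif was searched. It was found in 1 of the 19 windows of the 8 members, at -228 from the internal INPP4B start on the sense strand, and in 13.8% of all 35116 promoter windows. The INPP4B window with the match had a GC content of 30%, the outermost INPP4B window 68.7% and the PHLPP1 window 69.3%. A match to these letters is a description and not evidence of a bound site.

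AKT1 (chr14:104769349-104795751, minus strand), the most abundant member per kilobase, stood at 184, 189 and 182 CPM in TRB cells with vehicle and at 223, 36.3 and 245 with T3. Replicate 2 of TRB-T3 was the lowest of all libraries, and replicates 1 and 3 were above every vehicle library. The T3 effect was -0.14 with 12 libraries (SE 0.50, edgeR adjusted p = 0.869) and 0.39 with 11 (SE 0.13, edgeR adjusted p = 0.0333), a fold change of 1.31. It was passed in 5 of 11 cases with 1 more library left out, and the edgeR adjusted p reached 0.0739 without EV-vehicle replicate 2, 0.084, 0.0657 and 0.0915 without TRB-vehicle replicates 1, 2 and 3, and 0.0788 and 0.225 without TRB-T3 replicates 1 and 3. With replicate number as a block and 11 libraries the T3 effect in TRB cells did not pass (0.33, edgeR adjusted p = 0.0534). In EV cells AKT1 stood at 176, 161 and 190.2 CPM with vehicle and at 215, 168 and 236 with T3. The groups overlapped through replicate 2 of EV-T3, and the effect was 0.23 with 11 libraries (95% interval -0.026 to 0.48, edgeR adjusted p = 0.219). The effects in TRB and EV cells differed by 0.16 (-0.21 to 0.54, edgeR adjusted p = 0.563).

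AKT2 (chr19:40230317-40285536, minus strand), the isoform best known for insulin signalling, went the other way in TRB cells. It stood at 234, 228 and 229 CPM with vehicle and at 192, 32.4 and 201 with T3, so every T3 library was below every vehicle library. The effect did not pass with 12 libraries (log2 -0.69, SE 0.48, edgeR adjusted p = 0.348) or with 11 (log2 -0.18, SE 0.12, edgeR adjusted p = 0.291). In EV cells AKT2 stood at 222, 185 and 215 CPM with vehicle and 234, 196 and 257 with T3. The effect there was 0.14 with 11 libraries (95% interval -0.094 to 0.37, edgeR adjusted p = 0.408). The difference between these effects was -0.31 (-0.66 to 0.033, edgeR adjusted p = 0.209).

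**Figure D3:**
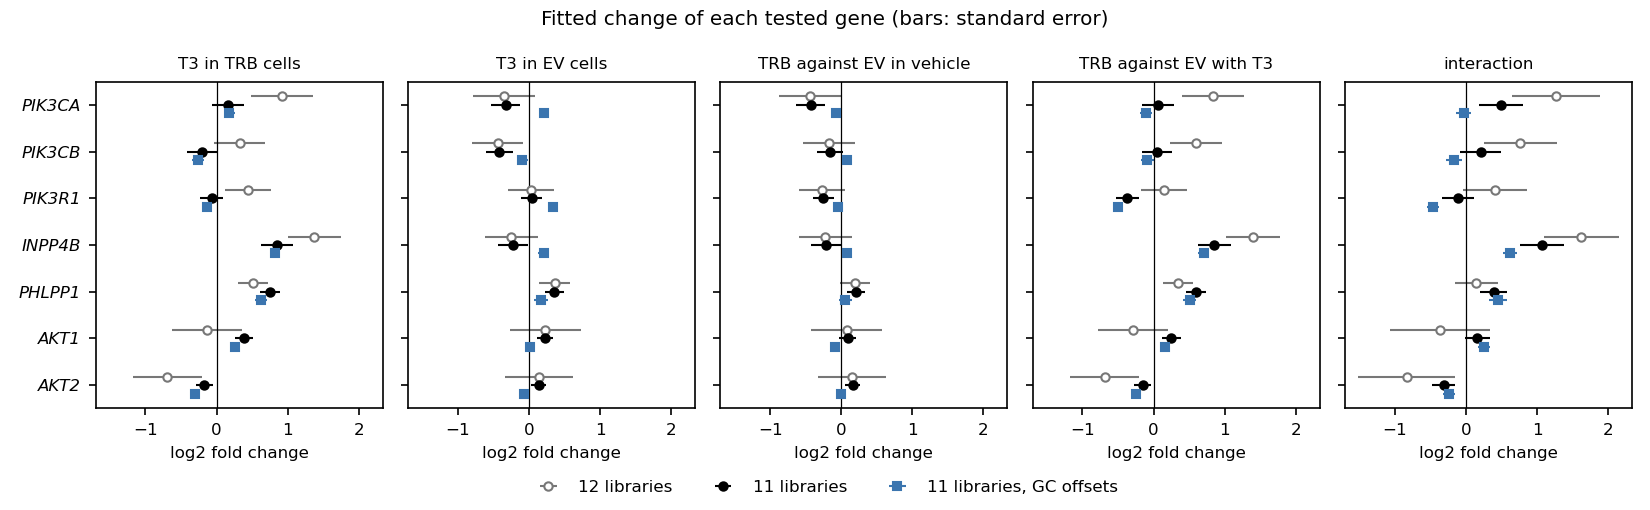
Log2 fold changes of the 7 tested members in the 5 contrasts, with standard errors as bars: open grey points use 12 libraries, black points 11 libraries and blue squares 11 libraries with GC offsets. INPP4B and PHLPP1 lie above 0 under all 3 fits for T3 in TRB cells, and AKT1, PIK3CB and PIK3R1 change sign between 12 and 11 libraries.

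The members' differences between the vectors in vehicle, where none of them passed, were split by the GC content of their transcripts. In vehicle with 11 libraries the 4 members with transcript GC of 34.8% to 40.3% (PIK3CA, INPP4B, PIK3CB and PIK3R1) were lower in TRB than in EV cells, by -0.16 to -0.43. The 3 with 56.6% to 58.7% (PHLPP1, AKT2 and AKT1) were higher by 0.090 to 0.21. For T3 in EV cells, where no member passed either, the split was not complete. There PIK3CA, PIK3CB and INPP4B were negative with 11 libraries, and PIK3R1 was positive at 0.042, like the GC-rich members. Over the 12335 tested genes with a known GC content the rank correlation of the log2 difference with GC was 0.70 in this comparison and 0.62 for T3 in EV cells. It was 0.0046 for T3 in TRB cells, -0.096 between the vectors in T3 and -0.39 for the interaction. These are descriptions across genes, which are not independent replicates.

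Offsets that remove a smooth trend on GC from each library changed what was called. With these offsets and 11 libraries the differences in vehicle lay between -0.088 and 0.087 for every member. For T3 in TRB cells 5 of 7 members passed, against 56.4% of the 12335 genes that could be fitted. INPP4B (0.83), PHLPP1 (0.62) and AKT1 (0.26) were higher, as without the offsets, and AKT2 (-0.31, edgeR adjusted p = 0.000463) and PIK3CB (-0.26, edgeR adjusted p = 0.0146) were lower. In EV cells PIK3R1 alone passed (0.33, edgeR adjusted p = 0.00091), 1 of 7 against 17.8%. For TRB against EV with T3 5 of 7 passed, against 42% of genes: INPP4B, PHLPP1 and AKT1 were higher, and PIK3R1 (-0.50, edgeR adjusted p = 1.23e-05) and AKT2 (-0.24, edgeR adjusted p = 0.00454) were lower. The same 5 passed in the interaction, against 34.7% of genes, where INPP4B was at 0.62 and PIK3R1 at -0.46.

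Replicate 2 of EV-T3 lay at an end of its group for every tested member. It was the highest of the 3 for PIK3CA, PIK3CB, PIK3R1 and INPP4B and the lowest for PHLPP1, AKT1 and AKT2. On the log2 scale replicate 1 lay nearer to replicate 2 for the low-GC members and nearer to replicate 3 for the GC-rich ones. PIK3CA stood at 66.1, 85.1 and 40.5 CPM in replicates 1, 2 and 3. Replicate 3 was the shallowest library, with 91.95% of alignments without a unique place. Which library departs was not tested. Without EV-T3 replicate 2 and TRB-T3 replicate 2, 6 of the 7 members passed for T3 in EV cells, against 40.3% of 14910 genes. PIK3CA (-0.55), PIK3CB (-0.62) and INPP4B (-0.49) were lower, and PHLPP1 (0.55), AKT1 (0.40) and AKT2 (0.29) were higher, with edgeR adjusted p of 0.0101, 0.00427, 0.0176, 0.00239, 0.00465 and 0.0297. PIK3R1 was at -0.11. Each of the 6 calls held in 1 of 11 cases with 1 more library left out, this one. Without EV-T3 replicate 3 instead, PIK3CA was at -0.095 and INPP4B at 6.7e-05. With GC offsets and 11 libraries the signs of PIK3CA (0.21), INPP4B (0.21) and AKT2 (-0.064) were turned. Those of PIK3CB (-0.092), PHLPP1 (0.17) and AKT1 (0.0090) were kept. The part of GC content in the 6 calls was not tested separately for the fit without both replicates.

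Over the 11 libraries log2 CPM of the 4 low-GC members was positively correlated within all 6 of their pairs, from 0.083 for PIK3R1 with INPP4B to 0.87 for PIK3CA with PIK3CB. Of the 12 pairs of a low-GC and a GC-rich member 11 were negative, down to -0.89 for INPP4B with AKT2, and the exception was INPP4B with PHLPP1 at 0.32. PHLPP1 and AKT1 were at 0.89. The libraries share groups, depth and the GC trend, so these values describe the data and carry no test.

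The genes most like each called member were found by the correlation of log2 CPM over the 11 libraries, among the 10157 genes whose mean log2 CPM reached 3. They were STARD4 and GDA for INPP4B (both 0.98), TMC6 and AMPD2 for PHLPP1 (both 0.98), and BCKDK (0.99) and SLC35B2 (0.98) for AKT1. STARD4, a sterol transfer protein, stood at 10.3, 15.4 and 15.4 CPM in TRB cells with vehicle and at 35.8, 111 and 32.1 with T3. TMC6 stood at 112, 101 and 107 with vehicle and at 268, 22.7 and 294 with T3. Like INPP4B, STARD4 was highest in replicate 2 of TRB-T3, and TMC6 was lowest there.

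Several genes in the rest of the pathway changed by more than any of the 8 members, with 12 and with 11 libraries. Of the 7 other class I PI3K subunits and direct regulators 4 were tested, and all 4 rose with T3 in TRB cells in both fits. Their median log2 change was 2.05 with 12 libraries and 2.12 with 11. Of all tested genes 8.54% were higher with 12 libraries and 18.1% with 11. This list and the other pathway lists were chosen with earlier results of these data known. Counts and medians over the lists therefore describe the listed genes and do not test whether the pathway responds more than other genes. PIK3CD, which encodes the p110δ subunit of white blood cells, stood at 1.42, 1.46 and 2.18 CPM with vehicle and at 17.5, 2.88 and 20.4 with T3. Each T3 library was above the vehicle libraries, replicate 2 by the least. The change was 3.01 with 12 libraries (SE 0.56, edgeR adjusted p = 0.00454) and 3.505 with 11. The white blood cell markers PTPRC and CD3E stayed at or under 0.22 CPM in every library, while CD14 reached 9.74.

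PIK3AP1, an adaptor that recruits PI3K, stood at 13.9, 12.1 and 12.5 CPM in TRB cells with vehicle and 86.3, 114 and 88.2 with T3. Its change of 2.90 with 12 libraries (SE 0.19, edgeR adjusted p = 5.73e-06) was 2.81 with 11. In EV cells it was 0.45 with 11 libraries (edgeR adjusted p = 0.0447). PIK3IP1, an inhibitor of PI3K, changed by 1.37 in EV cells with 11 libraries (edgeR adjusted p = 0.0358) and was at 1.42 in TRB cells. With 1 more of these 11 libraries left out, the calls in EV cells held in 2 of 11 cases for PIK3AP1 and in 4 of 11 for PIK3IP1, with an edgeR adjusted p of up to 0.172 and 0.153. In EV cells 2 of the 4 passed with 11 libraries and 0 with 12, against 7.33% and 0.229% of all genes. Of the 5 class II and III PI3K genes 4 were tested and 0 passed in any comparison with 12 or 11 libraries. At an unadjusted p under 0.05 there were 2 of them for T3 in TRB cells in each fit and 0 or 1 in the other comparisons.

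Among 16 other phosphatases of phosphoinositides or AKT 15 were tested. With T3 in TRB cells 2 rose and 0 fell with 12 libraries, and 5 rose and 1 fell with 11, against 14.7% and 33.3% of all genes in either direction and 8.54% and 18.1% higher. The medians were 0.11 and 0.15. INPP5J, a 5-phosphatase of PI(3,4,5)P3, stood at 3.15, 3.36 and 2.94 CPM with vehicle and 25.4, 1.98 and 25.1 with T3. Replicate 2 was below the vehicle libraries and replicates 1 and 3 far above them. Its change was 2.49 with 12 libraries (SE 0.65, edgeR adjusted p = 0.0277) and 3.05 with 11. With 12 libraries the call was lost without any 1 of TRB-vehicle replicates 1, 2 and 3 and TRB-T3 replicates 1 and 3, where the edgeR adjusted p rose to at most 0.105. SYNJ1, synaptojanin 1, rose by 1.00 with 12 libraries (SE 0.21, edgeR adjusted p = 0.00929) and by 0.93 with 11. INPP5F, which acts on the 4-phosphate, fell in the fit of 11 libraries (-1.04, SE 0.14, edgeR adjusted p = 9.37e-05) and was at -0.76 with 12 (edgeR adjusted p = 0.0602). In EV cells SYNJ2 alone passed, at 0.35 with 11 libraries, and 0 passed with 12. That call held in 1 of 11 cases with 1 more library left out (edgeR adjusted p up to 0.183).

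Upstream of PI3K 11 of 15 receptors and adaptors were tested, and with T3 in TRB cells 2 fell with 12 libraries and 3 with 11, while 0 rose, against 14.7% and 33.3% of all genes in either direction. The medians were -0.20 and -0.053. AXL, a receptor tyrosine kinase, stood at 15.4, 11.9 and 13.7 CPM in TRB cells with vehicle and 2.18, 1.80 and 1.87 with T3. All 3 T3 libraries were below all other libraries of the study. The change was -2.79 with 12 libraries (SE 0.20, edgeR adjusted p = 1.3e-05) and -2.68 with 11. In EV cells AXL changed by -0.72 with 11 libraries (edgeR adjusted p = 0.0261), a call that held in 7 of 11 cases with 1 more library left out (edgeR adjusted p up to 0.105). GAB2, an adaptor of p85, was at -0.52 with 11 libraries (edgeR adjusted p = 0.0341) and did not pass with 12 (adjusted p = 0.0748). From 11 libraries its call held in 6 of 11 such cases (up to 0.162).

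All 16 genes of PDK1, the mTOR complexes and their inputs and outputs were tested. With T3 in TRB cells 0 rose and 1 fell with 12 libraries, and 1 rose and 2 fell with 11, against the same 14.7% and 33.3% of all genes. The medians were -0.21 and 0.13. DEPTOR, an inhibitor of mTOR, fell by 1.12 with 12 libraries (SE 0.20, edgeR adjusted p = 0.00353) and by 1.05 with 11. MTOR changed by 0.38 and EIF4EBP1, which represses translation until mTOR phosphorylates it, by -1.17 with 11 libraries (edgeR adjusted p = 0.0137 and 0.000137). Neither passed with 12, and with 1 more library left out from the 11 the call on MTOR held in 9 of 11 cases (edgeR adjusted p up to 0.2). In EV cells MTOR (0.45) and DEPTOR (-0.67) passed with 11 libraries, and 0 of 16 passed with 12. Those calls held in 7 of 11 cases for MTOR and in 3 of 11 for DEPTOR, with an edgeR adjusted p of up to 0.0859 and 0.194.

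All 14 AKT substrates, FOXO factors and related kinases were tested. With T3 in TRB cells 4 rose and 1 fell with 12 libraries, and 7 rose and 2 fell with 11, against 14.7% and 33.3% of all genes in either direction and 8.54% and 18.1% higher. The medians were 0.49 and 0.30. TRIB2, a pseudokinase of the tribbles family, stood at 1.02, 1.81 and 1.68 CPM with vehicle and 37.3, 36.0 and 40.2 with T3. SGK1, a kinase related to AKT, stood at 12.1, 12.8 and 12.3 CPM with vehicle and 240.5, 264 and 260 with T3. The 3 T3 libraries of each gene lay close together, replicate 2 included. SGK1 changed by 4.36 (SE 0.17) and TRIB2 by 4.63 (SE 0.33) with 12 libraries. TRIB3, a tribbles protein that binds AKT, went from 199, 193 and 188 CPM to 31.6, 5.94 and 39.97, a change of -2.89 (SE 0.52, edgeR adjusted p = 0.00372), and FOXO3 was at -0.36 with 11 libraries (edgeR adjusted p = 0.0382), which held in 4 of 11 cases with 1 more library left out (edgeR adjusted p up to 0.238).

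SGK1 was also the gene of these lists with a difference in every comparison. In EV cells it rose with T3 by 1.44 with 12 libraries (SE 0.15, edgeR adjusted p = 0.00272), the 1 gene of the lists to pass there. In vehicle it was lower in TRB than in EV cells by -1.18 (SE 0.15, edgeR adjusted p = 0.0462), again the 1 gene to pass. With 11 libraries its edgeR adjusted p was 0.00227, and leaving out any 1 of these 11 from the fit of 12 lost the call, with an adjusted p of up to 0.591. With 11 libraries TRIB1 (-0.44), TRIB2 (0.94) and TRIB3 (-1.24) also passed for T3 in EV cells. With 1 more of the 11 left out, TRIB1 and TRIB3 passed in 11 of 11 cases and TRIB2 in 3 of 11, where it ran from 0.69 to 1.20 (edgeR adjusted p up to 0.182).

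Among cells given T3, TRB cells had more PIK3CD (2.77), PIK3AP1 (1.87), TRIB2 (2.61) and SGK1 (1.74) than EV cells with 12 libraries, and less AXL (-1.42) and SGK2 (-0.86). The call on PIK3CD was lost without EV-T3 replicate 1, 2 or 3 (highest edgeR adjusted p = 0.0883), and that on SGK2 held in 2 of 12 cases with 1 library left out, those of TRB-T3 replicates 1 and 2 (highest edgeR adjusted p = 0.148). With 12 libraries 2 of the class I subunits and regulators and 6 of the AKT substrates and related genes were higher. There 1 receptor or adaptor and 1 AKT-related gene were lower, and 0 genes of the other lists passed. Of all genes 6.68% passed in this fit in either direction. With 11 libraries the phosphatases SYNJ1 (0.57) and INPP5J (2.92) were also higher and INPP5F (-0.84) was lower. Also lower were 3 receptors or adaptors, IRS2 (-0.51) among them, 1 mTOR gene, EIF4EBP1 (-0.82), and 2 AKT-related genes. Of all genes 19.7% passed with 11 libraries in either direction and 11.8% were higher. With 1 more library left out the call on SYNJ1 held in 3 of 11 cases and that on IRS2 in 4 of 11 (edgeR adjusted p up to 0.289 and 0.256). The interaction was positive for 1 class I gene and 3 AKT-related genes and negative for 1 receptor with 12 libraries. It passed for 2.59% of all genes there, in either direction, and for 15.2% with 11 libraries. With 11 libraries it was positive for 2 class I genes, 2 phosphatases and 6 AKT-related genes and negative for 1 gene of each list except the class I and the class II and III lists.

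**Figure D4:**
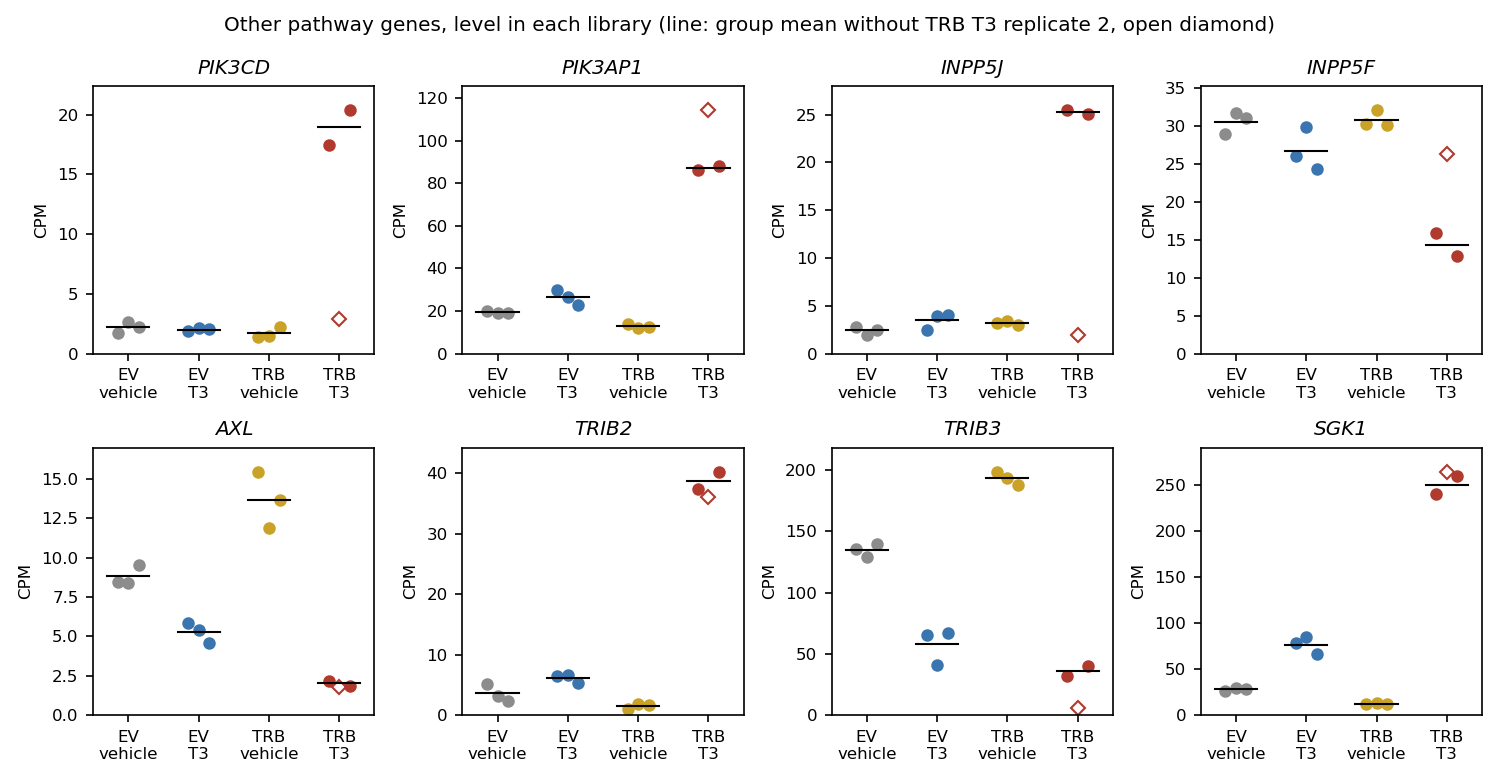
CPM of 8 further pathway genes (PIK3CD, PIK3AP1, INPP5J, INPP5F, AXL, TRIB2, TRIB3 and SGK1) in each of the 12 libraries, on linear axes from 0, with group means without TRB-T3 replicate 2 as lines and that library as an open diamond. For PIK3AP1, TRIB2 and SGK1 the diamond lies with the other 2 libraries of its group above all vehicle libraries, and for INPP5J it lies below the vehicle libraries of TRB cells.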

How the data were processed

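The authors deposited raw counts of reads per gene symbol for each of the 12 libraries. RNA came from a Trizol extraction and the library kit was Kapa Hyperprep, per the labels' protocols. Per the submitters' processing notes, CASAVA 1.7, STAR 2.7, HTSeq 0.10, DESeq2 and hg38 were used, and the annotation, strand setting and counting options are not given in the sources used here. Library sizes and tests leave out the closing lines that name no gene; ambiguous reads were 2.50% to 4.37% of reads in genes or ambiguous. The normalized table was not used.

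Counts were tested in R 4.3.3 with edgeR 4.0.16 (filterByExpr with a minimum count of 10 and a minimum total of 15, TMM scaling, 1 coefficient per group, quasi-likelihood test, two-sided, Benjamini-Hochberg adjustment over all tested genes at 0.05). CPM are counts scaled by TMM-adjusted library size. Standard errors come from the log2 change and its F statistic. The 95% intervals use the t distribution with the total degrees of freedom of the test. GC content, transcript length and overlaps are from GENCODE 29 by symbol; GC was known for 84.25% of the 14431 tested genes, and GC offsets use a spline with 5 degrees of freedom. Alternatives were DESeq2 1.42.0, upper-quartile scaling, no filter, the compared groups alone, a replicate block, GC offsets and leaving out each library, and leaving out a further library from the 11 was added after seeing the data. The procedure was tested on simulated counts. These held no GC trend and no library that stands apart, so they do not cover that feature of these data.

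The members and the 6 pathway lists (73 genes) were chosen with earlier results of these data known. The selection rule speaks of 10 symbols, of which 8 are reported here. From each list the text names, per comparison, up to 2 of the most positive and 2 of the most negative changes among genes that passed with 12 or 11 libraries.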

Additional observations from a re-analysis of the deposited data

Results flagged for a closer look

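The T3 effect on INPP4B was larger in TRB than in EV cells by 1.07 on the log2 scale without TRB-T3 replicate 2, and that difference passed edgeR's test. It did not pass with 12 libraries (1.63, edgeR adjusted p = 0.148). With 1 more of the 11 libraries left out the call held in 2 of 11 cases. With GC offsets and 11 libraries the difference was 0.62. With 12 libraries the difference between the T3 effects passed for PIK3AP1 (2.47), TRIB2 (3.79) and SGK1 (2.92), all more positive in TRB cells. It also passed for AXL, which was more negative in TRB cells by -2.05.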

How the results depend on the processing

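PIK3R2 had 0 to 5 reads per library and could not be tested. Members passing with 12 libraries numbered 1 for T3 in TRB cells and 0 elsewhere; leaving out libraries gave 0 to 3 for T3 in TRB cells, 0 to 6 for T3 in EV cells, 0 to 3 for TRB against EV with T3 and 0 to 3 for the interaction. Compared groups alone gave 0 for T3 in TRB cells (3 also without TRB-T3 replicate 2) and 2 in vehicle. DESeq2, upper-quartile scaling and no filter each gave 1 for TRB against EV with T3. GC offsets gave 4, 1, 4 and 2 for T3 in TRB cells, T3 in EV cells, TRB against EV with T3 and the interaction. With 11 libraries they gave 5, 1, 5 and 5, against 56.4%, 17.8%, 42% and 34.7% of genes. The 6 for T3 in EV cells stood against 40.3% of genes. For the other settings here, apart from 12 and 11 libraries without offsets, no share of all genes is given. Those counts are descriptions. Whether libraries of the same replicate number share more than that number is not known. Correlations of same-numbered deviations ran from -0.145 to 0.265 for T3 in TRB cells and from -0.032 to 0.429 for T3 in EV cells. Between the vectors they ran from 0.023 to 0.144 in vehicle and from 0.059 to 0.728 with T3, the highest for replicate 2. In no comparison was every pair over 0.1. EV-vehicle and TRB-T3, which were not compared, ran from 0.155 to 0.501. With the replicate block 1 member passed for TRB against EV with T3, and with the block and 11 libraries 2, 2 and 1 passed for T3 in TRB cells, TRB against EV with T3 and the interaction.

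Signs turned as follows, and the cause was not tested. With GC offsets (12 libraries, then 11) T3 in TRB cells gave PIK3CB -0.26 and -0.26, PIK3R1 -0.11 and -0.13 and AKT1 0.15 and 0.26. T3 in EV cells gave PIK3CA 0.22 and 0.21, INPP4B 0.20 and 0.21 and AKT2 -0.069 and -0.064. TRB against EV in vehicle gave PIK3CB 0.083 and 0.078, INPP4B 0.089 and 0.087, AKT1 -0.088 and -0.088 and AKT2 -0.0062 and -0.0034. TRB against EV with T3 gave PIK3CA -0.12 and -0.11, PIK3CB -0.069 and -0.089, PIK3R1 -0.48 and -0.50, AKT1 0.059 and 0.16 and, with 12 libraries, IRS2 0.43. The interaction gave PIK3CA -0.058 and -0.033, PIK3CB -0.15 and -0.17, PIK3R1 -0.44 and -0.46 and AKT1 0.15 and 0.25. The replicate block with 11 libraries gave PIK3CB -0.13, PIK3R1 -0.0063 and AKT1 0.33 for T3 in TRB cells, PIK3R1 -0.28 and AKT1 0.20 for TRB against EV with T3, and PIK3R1 -0.028 and AKT1 0.10 for the interaction. The block with 12 gave PIK3R1 -0.0067 for T3 in EV cells, and no filter -0.0085. Compared groups alone with 11 libraries gave PIK3CB -0.21, PIK3R1 -0.070 and AKT1 0.39 for T3 in TRB cells, and PIK3CB -0.010, PIK3R1 -0.43 and AKT1 0.18 for TRB against EV with T3.

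Leaving out libraries, T3 in TRB cells ran from -0.47 to 0.46 for AKT1, -0.27 to 0.56 for PIK3CB, -0.14 to 0.67 for PIK3R1 and -0.13 to 0.49 for MTOR. T3 in EV cells ran from -0.51 to 0.012 for INPP4B and -0.11 to 0.23 for PIK3R1. TRB against EV with T3 ran from -0.65 to 0.34 for AKT1, -0.17 to 1.11 for PIK3CA, -0.18 to 0.82 for PIK3CB and -0.54 to 0.35 for PIK3R1. The interaction ran from -0.75 to 0.25 for AKT1, -0.016 to 0.49 for PHLPP1, -0.022 to 0.96 for PIK3CB and -0.28 to 0.60 for PIK3R1.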
